A study of Mus musculus with 28 samples.

Results

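Single hippocampal neurons captured in living tissue by TIVA were set against bulk hippocampus: 5 libraries labelled as hippocampal tissue neurons with TIVA capture and 3 labelled as hippocampal bulk tissue, 8 of the 28 libraries of the series. The libraries of each group were taken by the source name in their labels, which uses no measured value. Both groups came from C57BL/6 mice 8 to 10 days old, from acute coronal slices kept for 90 min in artificial cerebrospinal fluid, and both went through 3 rounds of linear amplification of polyadenylated RNA. The neurons were loaded with 30 µM TIVA tag for 90 min and photolysed in the CA1 field with the laser at 80% power. The bulk pieces are labelled untreated, so tag, light and the step from tissue to single cell changed together and cannot be told apart. The imaged field around the cell was aspirated along with it. The labels do not say which hippocampal fields the bulk pieces held, nor how many mice gave the 8 libraries.

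TIVA (transcriptome in vivo analysis) uses a caged, cell-penetrating tag. Light on 1 chosen cell uncages the tag there, and the tag then binds the poly(A) tails of that cell's messenger RNA so that it can be pulled from an aspirated piece of slice. A bulk piece of hippocampus blends the RNA of excitatory and inhibitory neurons, astrocytes, cells of the oligodendrocyte lineage, microglia and vessels.

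The deposited tables count reads over 28661 features that carry UCSC known-gene identifiers, of which 11967 join the identifiers of several isoforms. The files do not pair these identifiers with gene symbols, and 0 of the 55419 single identifiers occurred in the gene tables at hand. Features are for this reason described by level and pattern, only 2 in each direction are named, and the neuronal label could not be checked against marker genes. For the same reason no transcript or promoter sequence could be assigned to a feature. No p-value is given. The labels tie no neuron or bulk piece to an animal, so each group counts as 1 sample, and n is a number of libraries; differences are read against the spread over them.

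Assigned reads were 24.1 to 33.4 M per neuron and 26.7 to 59.0 M per bulk library. Reads outside features made up 15.8% to 39.2% of the counted reads in neurons and 21.1% to 30.5% in bulk. Reads falling on more than 1 feature were 1.87% to 2.54% in neurons and 4.68% to 8.88% in bulk, with no overlap. Bulk library 1 stood apart from the other two: it correlated with them at 0.884 and 0.896 while they correlated at 0.951 (Pearson's r across the measured features defined below), and its 50 most abundant features took 36.6% of reads against 20.8% and 16.2%. Counts of calls, and the bulk means and differences of features that turn on it, are given with and without it.

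Levels are counts-per-million (CPM), that is, a count divided by the library's assigned total. A difference is the mean of log2(CPM + 10) over the neurons minus that over the bulk libraries, so differences of low features are understated. Measured features had a mean of 5 CPM or more in either group, 11279 in all. A feature was called when the difference was 2 or more in size, 4-fold on that scale, and no neuron overlapped any bulk library.

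Most measured features lay close to their bulk level on this scale when the 5 neurons were averaged. The difference was under 2-fold for 8755 features (77.6%), the median was −0.31, and the middle 50% ran from −0.80 to 0.24. Part of this closeness comes from the added 10 CPM. A feature under 10 CPM in bulk is less than 2-fold lower even if absent from every neuron. Of 3951 features at 5 to 20 CPM in bulk, 599 were below 1 CPM in every neuron. With 1 CPM added the median was −0.87. By the call, 25 features were higher in neurons (0.222% of those measured) and 219 were lower (1.94%). Allowing overlap, the size alone was reached by 34 and 276. Without any rule of size, 295 features (2.62%) were higher in every neuron than in every bulk library and 1621 (14.4%) were lower, while the other 9363 (83.0%) overlapped. With 5 and 3 libraries, some features would lie apart in either direction without any difference between groups, and that share was not estimated. A feature could be called lower only from a bulk level of 30 CPM upwards, because of the 10 CPM added before taking logs. Library scaling altered the balance: with TMM factors (the trimmed mean of M-values), 75 were higher and 149 lower, a higher share of 33.5% of calls against 10.2%, and with DESeq2 size factors 73 and 155, a share of 32.0%. The median difference was then −0.10 and −0.11. Lower calls outnumbered higher ones under each of these scalings. The calling rule altered the balance too: summed counts with the size rule alone gave 89 higher and 227 lower features. A neuron without reads of a feature blocks a higher call and counts towards a lower one, while a single high neuron blocks a lower call. A mean of logs also falls below the log of the mean where neurons vary. In 1 or more neurons, 1699 features were 4-fold or more above the bulk mean and 2487 below it. The part of the rule in the balance was not tested. The counts also turned on single libraries: higher calls were 51 without neuron 3, 53 without neuron 5 and 65 without bulk library 3, and lower calls were 332 without bulk library 1. Membership of the higher list was less stable than its size: without bulk library 1 there were 19 higher calls, of which 10 were among the 25, and 18 of the 25 were called without neuron 1 and likewise without neuron 2. Of the 219 lower features, 205 were called without bulk library 1, and 190 to 210 with any other library left out.

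**Figure D1:**
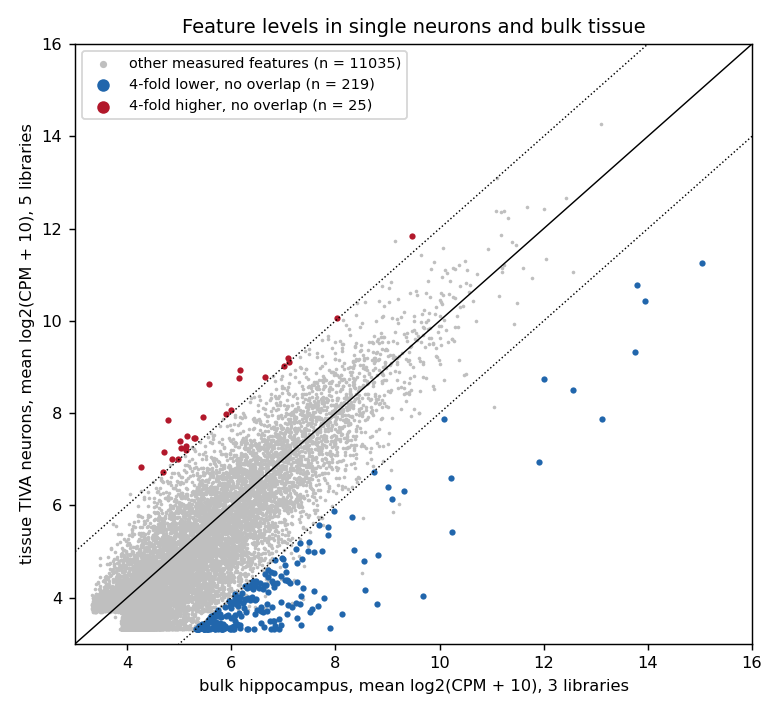
Mean log2(CPM + 10) of each of the 11279 measured features in 3 bulk libraries (x axis) and 5 tissue TIVA neurons (y axis); the solid line marks equal levels, the dotted lines a difference of 2, and colours the 25 higher and 219 lower calls. Lower calls include a group of features at the top of the bulk range and many that sit at the floor of the neuron axis.

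The 25 higher features had a median difference of 2.16, the largest being 3.07. Their median level was 151 to 302 CPM in the 5 neurons and 19.9 to 57.0 CPM in the 3 bulk libraries. Summed, they took 0.975% to 1.54% of reads in neurons and 0.196% to 0.253% in bulk. Only 10 of the 25 had a mean of 50 CPM or more in bulk, and 1 had 0 reads in a bulk library. These are levels of features selected for that contrast, so they describe the list and do not test it. In bulk tissue, a lower level may mean fewer cells with the RNA or less RNA per cell, and these cannot be told apart.

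The highest of them by the naming rule was uc007jhl.1:uc007jhk.1:uc007jhj.1, which stood at 297, 512, 212, 423 and 630 CPM in neurons 1 to 5 and at 12.3, 61.4 and 57.0 CPM in bulk libraries 1 to 3. All 5 neurons were more than 3 times above the highest bulk library. Its mean was 415 CPM (SD 166, n = 5) against 43.5 CPM (SD 27.2, n = 3), 9.53-fold, with a difference of 3.07. Without bulk library 1 the bulk mean was 59.2 CPM and the difference 2.52. Summed over the group it had 56060 reads in neurons, 407 CPM (95% exact Poisson interval 404 to 411), and 5755 reads in bulk, 49.0 CPM (47.8 to 50.3). These intervals cover counting error only. The same feature was at 18.9 to 57.8 CPM in 3 hippocampal tissue neurons collected by pipette and at 33.9 to 140 CPM in 4 cultured hippocampal TIVA neurons, below each tissue TIVA neuron in both cases. The pipette libraries are named so by their source label, though their protocol text describes TIVA capture, and the cultured neurons had 7 to 9 days in culture, 10 µM tag for 15 min and 30% laser power. Values of these groups are given side by side only.

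The next was uc007lvn.1, at 318, 438, 263, 373 and 31.8 CPM in neurons 1 to 5 and at 19.9, 14.0 and 19.4 CPM in bulk. Here 4 neurons were high and neuron 5 lay just above the bulk range. The mean was 285 CPM (SD 156, n = 5) against 17.8 CPM (SD 3.25, n = 3), 16.0-fold, and the difference of 3.06 was 3.67 without neuron 5. In contrast to the first feature, its level was high in tissue pipette neurons too, at 498 to 956 CPM, and low in cultured TIVA neurons, at 8.22 to 16.2 CPM.

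The reads behind the 219 lower features were concentrated in the few most abundant ones. The 10 with the highest bulk levels, a fixed number with no gap below it (the next feature was at 1242 CPM), had bulk means of 1260 to 47853 CPM, or 348 to 19455 CPM without bulk library 1. They took 25.7%, 8.14% and 5.48% of the reads of bulk libraries 1 to 3, but 0.341% to 1.78% of reads in neurons; the bulk mean was 13.1%, and 6.81% without bulk library 1. The rest took 2.31% to 2.69% in bulk and 0.154% to 0.370% in neurons. With all 219, the share was 8.17% to 28.1% in bulk and 0.495% to 2.05% in neurons (mean 15.6%, SD 10.9, n = 3, against 1.16%, SD 0.621, n = 5). Without bulk library 1 the bulk mean of the same features was 9.31%. Their median level was 58.4 to 81.2 CPM in bulk and 0.151 to 2.87 CPM in neurons. Of the 219, 121 had 0 reads in 1 or more neurons, 50 were below 1 CPM in every neuron, and 5 had 0 reads in all of them. A count of 0 allows up to 0.0897 to 0.124 CPM (3 reads) in these libraries.

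The feature with the largest negative difference was uc009sgc.1:uc009sgd.1. It stood at 0.121, 8.62, 1.41, 41.2 and 0.377 CPM in neurons 1 to 5 and at 4521, 282 and 414 CPM in bulk libraries 1 to 3. Neuron 1 held 3 reads of it. The bulk mean was 1739 CPM (SD 2410, n = 3), or 348 CPM without bulk library 1. The difference was −5.66, and −4.43 without that library, so more than a log2 unit rested on it. Tissue pipette neurons had 438 to 1321 CPM and cultured TIVA neurons 126 to 478 CPM, both above every tissue TIVA neuron.

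The second, uc009vev.1, stood at 162, 137, 375, 353 and 186 CPM in the neurons and at 21182, 5298 and 6249 CPM in bulk. Every neuron held it, at levels that varied less than 3-fold, and every bulk library was far above. The mean was 242 CPM (SD 113, n = 5) against 10909.7 CPM (SD 8909, n = 3), with a difference of −5.25. Without bulk library 1 the bulk mean was 5774 CPM and the difference −4.63. Tissue pipette neurons had 2808 to 4741 CPM, and cultured TIVA neurons had 16279 to 27558 CPM, above bulk libraries 2 and 3. It is 1 of the 10 lower features with the highest bulk levels.

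**Figure D2:**
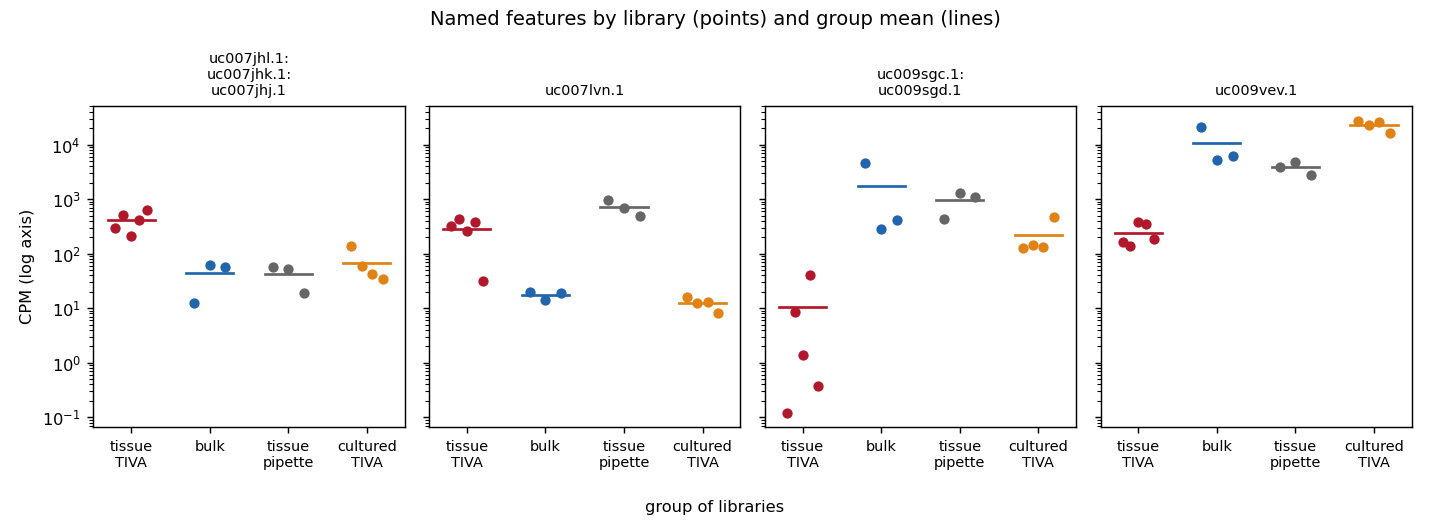
Levels of the 4 named features in CPM on a log axis, 1 point per library and a line at the group mean, for 5 tissue TIVA neurons, 3 bulk libraries, 3 tissue pipette neurons and 4 cultured TIVA neurons. The first feature is highest in tissue TIVA neurons, the second in both kinds of tissue neuron, and the other two are lowest in tissue TIVA neurons.

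The same 219 features took 3.34%, 5.60% and 3.12% of reads in tissue pipette neurons and 17.1% to 62.1% in cultured hippocampal TIVA neurons. Those of the 10 with the highest bulk levels were 2.47% to 4.93% and 15.1% to 60.4%. The tissue TIVA neurons were lower than every library of the other groups. Low levels in these neurons were part of the choice of features, so their place at the bottom is a description. The shares of reads on more than 1 feature ran alongside, at 2.88% to 3.50% in tissue pipette neurons and 5.79% to 10.9% in cultured TIVA neurons. The part of such reads in the result was not tested.

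**Figure D3:**
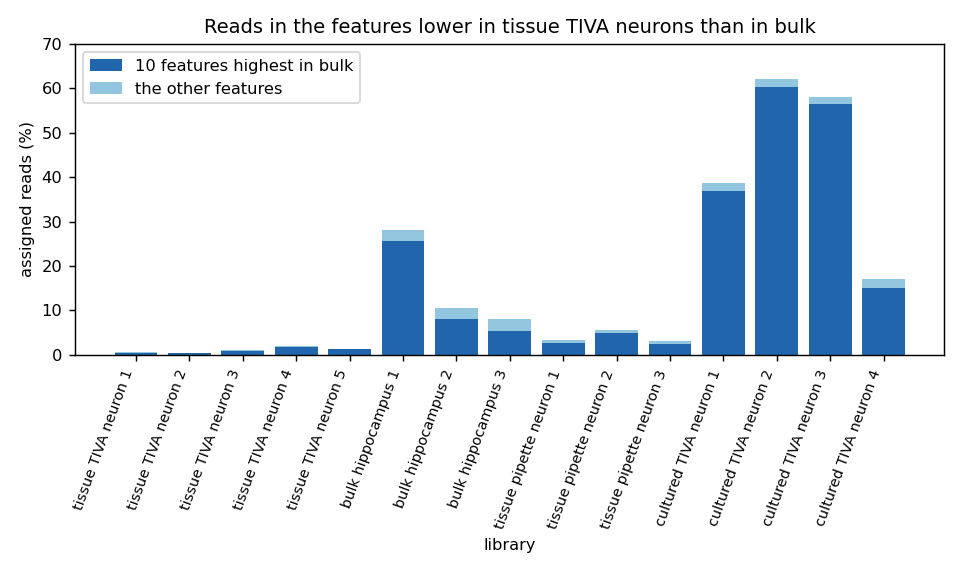
Percentage of assigned reads in the 219 features lower in tissue TIVA neurons than in bulk, by library, split into the 10 with the highest bulk level (dark) and the rest (light). Tissue TIVA neurons lie at 0.495% to 2.05%, below all other libraries shown, and bulk library 1 at 28.1% lies above the other bulk libraries.

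Whether a transcript of the tissue was found in a single neuron varied with its bulk level. For this count the 8 libraries were each thinned to 24.1 M reads, as in the shallowest neuron, and found means at least 1 read. Neurons 1 to 5 then held 11421, 10955, 11714, 10797 and 10326 features and bulk libraries 1 to 3 held 18374, 18987 and 17638, a difference of medians of −7419 with no overlap (SD over neurons 542). Of 869 features at 200 CPM or more in bulk, 860 (99.0%) were found in all 5 neurons and 0 in none. At 50 to 200 CPM, 2679 of 2833 (94.6%) were found in all 5. By class, the share was 76.5% at 20 to 50 CPM, 39.1% at 5 to 20 CPM and 9.22% at 1 to 5 CPM.

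Most features missing from a neuron were present in another. Among 10656 features with a bulk mean of at least 5 CPM, 7381 were found in all 5 neurons, 3074 in 1 to 4 of them and 201 (1.89%) in none, which became 309 without neuron 3. At a stricter limit of 1 CPM, among 3702 features with a bulk mean of at least 50 CPM, 17 lay below it in every neuron, and 35 exceeded it in a single neuron. These few features are the ones that bulk tissue holds at a sizeable level and that lay below 1 CPM in nearly every captured neuron. Low is not absent here. By 1 read at the common depth, 2 features at 50 to 200 CPM in bulk and 0 at 200 CPM or more were found in no neuron.

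**Figure D4:**
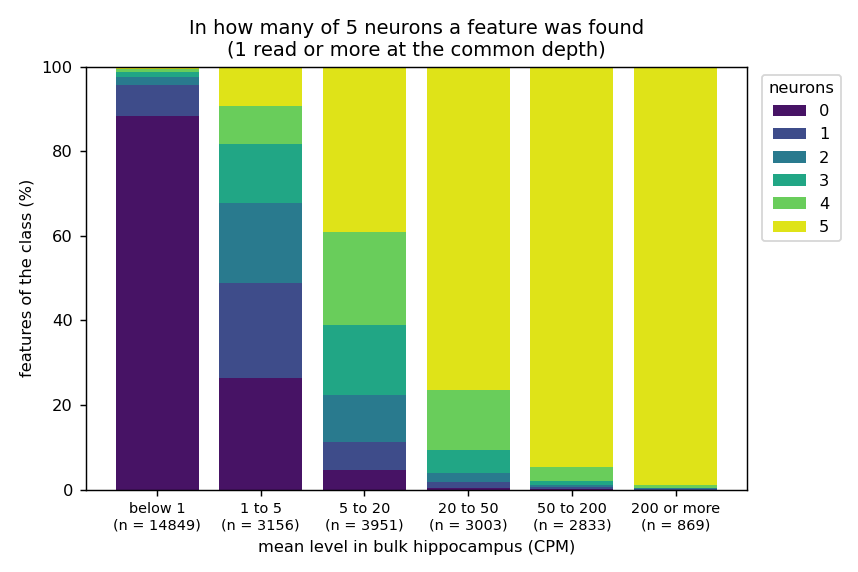
Share of features found in 0 to 5 of the 5 neurons (colours; 1 read or more at 24.1 M reads) by mean level in bulk hippocampus in CPM, with the number of features under each bar. The share found in all 5 neurons goes from 9.22% at 1 to 5 CPM to 99.0% at 200 CPM or more.

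Adding neurons brought the set closer to that of the tissue, though short of it. Each library added 24.1 M reads, so more neurons also meant more reads, and cells and reads were not separated. The union of 5 neurons rested on more reads than that of the 3 bulk libraries. At the common depth the union was a median of 12686.5 features for 2 neurons, 13539 for 3, 14118 for 4 and 14503 for all 5, against 20076 for the 3 bulk libraries. Nearly all of the neurons' union, 14357 features, was in the bulk union as well. Of 7921 features with 0 reads in all bulk libraries, 119 had a read in some neuron, 12 reached 1 CPM in a neuron, and 0 reached it in 2 neurons. The highest of them stood at 53.0 CPM. Profiles changed in the same way: across the measured features, the median correlation with a bulk library was 0.693 for single neurons, 0.756 for sums of 2, 0.780 for sums of 3, 0.793 for sums of 4 and 0.803 for the sum of 5 (0.788 to 0.820). These correlations run across features of the same libraries and describe likeness only.

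Neurons differed from each other more than bulk libraries did. At a mean level of 50 to 200 CPM the median SD of log2(CPM + 10) was 1.09 over the 5 neurons and 0.44 over the 3 bulk libraries. Taking 3 neurons at a time to match the bulk number, it was 0.85 to 1.15 over the 10 possible trios. At 20 to 50 CPM the values were 1.19 and 0.35, and at 5 to 20 CPM 0.80 and 0.26. At 200 CPM or more they approached each other, at 0.67 and 0.50, with trios from 0.55 to 0.69. The bulk values include bulk library 1. At 50 to 200 CPM the gap in SD was 0.65 with it and 0.88 without it. Its part in the values at 200 CPM or more was not tested. The share of features with a wider spread in neurons was 93.6% at 20 to 50 CPM and 65.5% at 200 CPM or more. This share sets 5 neurons against 3 bulk libraries, without matching the number, and an SD over fewer libraries tends to be smaller.

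The neurons also differed in how far they were from bulk. Neuron 3 was the closest, with a median correlation of 0.778 to bulk libraries, 140 measured features 4-fold or more above the bulk mean and 440 below it. Neuron 2 had the lowest correlation, 0.635, with 663 above and 1134 below. Neurons 1, 4 and 5 had correlations of 0.718, 0.681 and 0.688, with 342, 533 and 442 features above and 636, 1042 and 1175 below. Each bulk library had at most 4 features above the mean of the 3 and at most 2 below, a mean that includes the library itself. Neuron 3 also had the most assigned reads, 33.4 M, and the lowest share outside features, 15.8%, while neuron 2 had the highest share, 39.2%. The part of read quality in this order was not tested. The median correlations with the other neurons were 0.676, 0.642, 0.702, 0.645 and 0.636 in neurons 1 to 5, lower than those with bulk in each case except neuron 2.

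Departures of 4-fold or more from the bulk mean were rarely shared by all neurons. This turns on the cut: without a rule of size, 295 features were higher and 1621 lower in every neuron than in every bulk library. Features under 30 CPM in bulk could not count as 4-fold below, because of the 10 CPM added. Of 1699 features that were 4-fold or more above the bulk mean in some neuron, 1376 (81.0%) were so in 1 neuron only, 248 in 2, 55 in 3, 17 in 4 and 3 in all 5. Below the bulk mean, 2487 features were 4-fold or more down in some neuron, 1388 (55.8%) in 1 only, 586 in 2, 281 in 3, 136 in 4 and 96 in all 5. Another count was of opposite moves: 152 features were 4-fold above bulk in some neurons and 4-fold below it in others.

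Features far above bulk were sought with a stricter limit, at 50 CPM or more in a neuron and 8 times or more above the highest bulk library. There were 498 of them, and 453 (91.0%) met the limit in 1 neuron only, 43 in 2, 1 in 3, 1 in 4 and 0 in all 5. Neurons 1 to 5 had 51, 171, 13, 131 and 87 such features of their own, which took 0.670%, 4.10%, 0.0922%, 1.90% and 1.16% of their reads. Ordered by this number the neurons run 2, 4, 5, 1 and 3, which is also their order from the lowest to the highest correlation with bulk; both measures come from the same levels. The median level of the 453 features was 104 CPM in their own neuron, and the highest was 10167 CPM. Their median bulk level was 6.38 CPM, and 14 were below 1 CPM in every bulk library. In the remaining 4 neurons 117 of the 453 (25.8%) were below 1 CPM throughout, and 276 were at 10 CPM or more in at least 1 of them. Counting features that met the limit in a library, shared or not, neurons 1 to 5 had 71, 198, 20, 149 and 108, tissue pipette neurons 158, 156 and 68 and cultured TIVA neurons 24, 2, 0 and 6. These counts share the bulk libraries as reference, and depth differed, at 6.64 to 11.6 M and 9.13 to 26.2 M assigned reads. Differences between cells and transcripts lost at capture or amplification cannot be told apart from 1 library per cell.

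**Figure D5:**
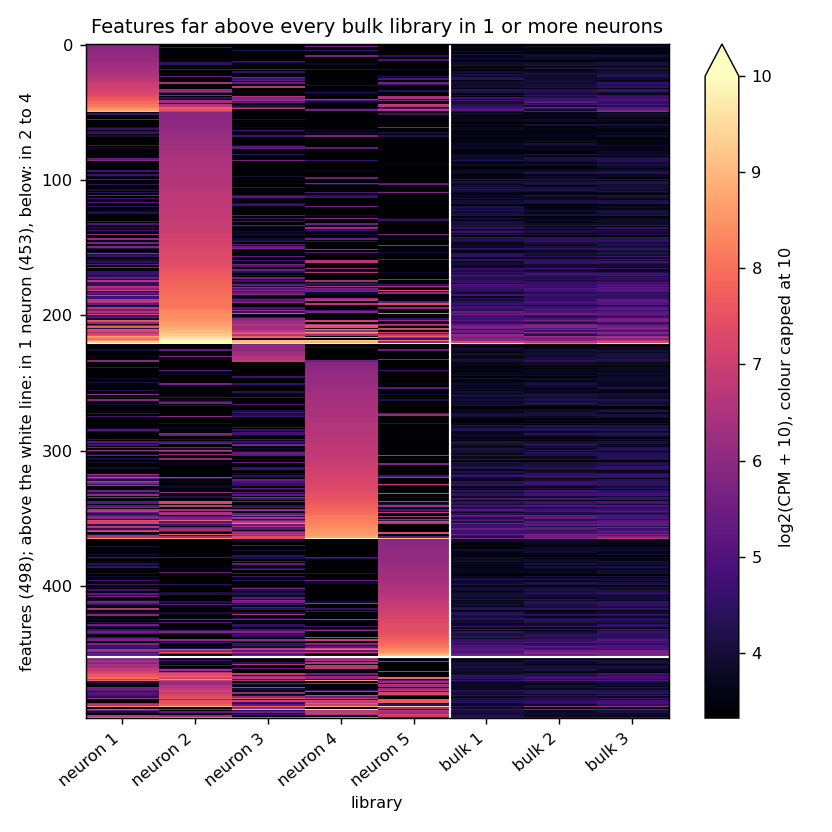
Level, as log2(CPM + 10) with the colour capped at 10, of the 498 features that were far above every bulk library in 1 or more neurons (rows), in 5 tissue TIVA neurons and 3 bulk libraries (columns). Above the white line, 453 features are ordered by the 1 neuron in which they met the limit, which gives 5 blocks of 51, 171, 13, 131 and 87 rows.

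Feature names held one more property that the comparison did not use, the number of isoform identifiers they join. The median was 2 in the 219 lower, the 25 higher and all 11279 measured features. Several identifiers were joined in 141 of the 219 lower features (64.4%), 15 of the 25 higher ones and 68.1% of measured features.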

How the data were processed

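Read counts were taken from 1 deposited table per library. The authors' values are whole-number counts per feature, made with CASAVA 1.8.1 and HTSeq on mouse build mm9, per the submitters' processing notes; for the aligner, the overlap mode and strand, the setting is not given in the sources used here. Overlapping, antisense and near-identical features could not be told apart. Totals exclude the 5 HTSeq summary lines, which hold no gene (shares in the report). Libraries were grouped by source name, and replicate numbers follow record order. No pair of libraries within a group agreed within sampling noise (lowest chi-square per degree of freedom 172).

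CPM, log2(CPM + 10), thinning (fixed seed) and counts of calls were computed in Python 3.11.15 with numpy 2.4.6, pandas 2.3.3 and scipy 1.17.1. TMM factors came from edgeR 4.0.16 and size factors from DESeq2 1.42.0, as alternatives of scale only; no test was run. Named features had a mean of 20 CPM or more and 10 reads or more in every library of the higher group, lay apart from the other group, and ranked first by the difference; 291 and 636 features met this, and 2 per direction are printed for lack of symbols. Marker lists could not be used. The comparison, the lists and the rules were chosen with earlier results of these data known; within it, libraries were taken by label alone.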

Additional observations from a re-analysis of the deposited data

Results flagged for a closer look

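Over the 5 tissue TIVA neurons, 22 measures were examined for a neuron far from the other 4, and 2 had one. Chance flags about 1 group in 20. Neuron 5 had 2.54% of its counted reads on more than 1 feature, against 1.87% to 2.04% in the other 4 neurons, and all 5 lay below every bulk library. Neuron 4 had 41.2 CPM of uc009sgc.1:uc009sgd.1, against 0.121 to 8.62 CPM in the other 4, still below the lowest bulk library at 282 CPM.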

How the results depend on the processing

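No paired analysis was possible because the labels give no replicate numbers and name no animal. Counts of higher and lower features were 75 and 149 with TMM, 73 and 155 with DESeq2 size factors, 15 and 263 when totals excluded the top 50 features, 65 and 1482 with 1 CPM added, 222 and 948 at a difference of 1, and 2 and 46 at a difference of 3. Summed counts, with the size rule alone, gave 89 higher and 227 lower features. The median difference was −0.10 with TMM, −0.11 with DESeq2, −0.87 with 1 CPM added and −0.0032 with no filter. The difference in features detected was −6752 at 5 reads or more and −2632 at 10 CPM or more. Features found in no neuron were 471 and 1418 at these limits, and 3005 were found in every neuron at 10 CPM or more. Features far above bulk in 1 neuron were 1239 at 4 times bulk and 99 at 200 CPM. The lower features at a difference of 1 took a mean of 2.42% of reads in neurons. With 1 CPM added, the gap in SD was 0.83, the correlation of the sum 0.724 and the difference of uc009sgc.1:uc009sgd.1 −7.55. Leaving out 1 library in turn gave 19 to 65 higher and 208 to 332 lower features, 170 to 309 found in no neuron, 307 to 607 far above bulk in 1 neuron, a gap in SD of 0.55 to 0.88 and a correlation of the sum of 0.778 to 0.815. The 4 named features kept their direction under each alternative scaling. Leaving out a library or changing the added CPM could not reverse it, because the naming rule required every neuron to lie apart from every bulk library. The cause of the shifts between runs was not tested.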

Other observations

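The feature with the largest negative difference, uc009sgc.1:uc009sgd.1, follows directly in the deposited table a feature called higher in neurons, at 265 to 986 CPM against 51.9 to 82.7 CPM in bulk. This pair was chosen after its values were seen, and it was the only 1 pair of neighbouring rows called in opposite directions. Of the reads on the pair, the first row took 99.96%, 99.1%, 99.7%, 93.5% and 99.9% in neurons 1 to 5 and 1.19%, 15.5% and 16.7% in bulk libraries 1 to 3. It took 17.7% to 48.0% in tissue pipette neurons and 12.3% to 33.7% in cultured TIVA neurons, below every tissue TIVA neuron. The gap to the bulk libraries followed from the 2 calls that picked the pair. The summed level of the pair overlapped, at 266 to 994 CPM in tissue TIVA neurons and 334 to 4576 CPM in bulk. Row order gives no position in the genome here, and whether the 2 features overlap or share reads was not tested.

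Of the 10 lower features with the highest bulk levels, 6 lie in rows 24639 to 24646 of the table, uc009vev.1 being the first. Their bulk means ran from 6723 to 47853 CPM, or 5648 to 19455 CPM without bulk library 1, and their neuron means from 242 to 2977 CPM. Among the 219 lower features, 20 had another lower feature in the next or previous row, and these 20 include the 6 above. No like count over all measured features was made, so the number is not read as grouping.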
